A study of Rattus norvegicus with 24 samples.

Results

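The transcription factor p53 is held at a low level in unstressed cells by the ubiquitin ligase Mdm2 and is stabilised when DNA is damaged. It then switches on genes that halt the cell cycle, genes that feed back on p53 itself and genes that prepare the cell for repair or death. In the embryonic cortex this pathway is best known for removing or arresting progenitors whose DNA has been damaged during division. The 9 genes described here, Cdkn1a, Btg2, Plk2, Aen, Phlda3, Rps27l, Zmat3, Mdm2 and Ccng1, are p53 targets grouped as arrest and feedback genes. The group is loose, as Aen encodes a nuclease that acts in apoptosis. All 9 are among the 17420 genes in the deposited expression table. They were selected by symbol, with earlier results on these same pups in view, to be compared across the 4 maternal treatments. The differences between treatments are therefore given for these genes as descriptions, without a p-value. Where a later passage says that some of them pass a p threshold, nothing is read from it.

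RNA was sequenced from the dissected hippocampus and neocortex of 24 Sprague-Dawley rat fetuses at embryonic day 18, with 6 pups from 2 litters in each of the 4 groups. Dams of the MAM group were injected intraperitoneally on gestational day 17 with methylazoxymethanol acetate, a DNA-methylating agent, at 22 mg/kg. Dams of the Poly I:C group received the double-stranded RNA mimic polyinosine:cytosine at 7.5 mg/kg on the same day, and control dams received saline. The tissue of these 3 groups was taken 18 hours later. Dams of the Low Protein group ate a diet of 6.1% protein from gestational day 11, and control rats an isocaloric diet of 20.3% protein. The diet of the MAM and Poly I:C dams is not given in the sources used here, nor is whether the Low Protein dams were injected. Low Protein and saline may therefore differ in injection as well as diet. All treatments were given to the dam, so the 3 pups of a litter share their exposure, and the spread quoted over 6 pups is not a spread over 6 independent exposures.

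Expression is given in the deposited unit TPM, a read level scaled to a common total in each pup. All 9 genes passed the low-value filter that left 10796 genes (a mean above 0.05 TPM and a value above the table's offset in at least 12 pups). The pyramidal neuron markers that define the labelled tissue were present in every pup, with a summed level of 123 to 277 TPM over 6 genes. Saline pup 2.1 (the first number is the litter, the second the pup) stood apart. It had the lowest pyramidal sum, 123 TPM against a saline median of 221 TPM, and the highest ganglionic eminence and striatum sum, 90.5 TPM against a saline median of 55.9 TPM. In Low Protein pup 2.2, the meninges sum was 34.5 TPM against a group median of 9.55 TPM and the microglia sum was 17.1 TPM against 11.0 TPM. The differences of the 9 genes are given with and without saline pup 2.1.

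The upstream sequences of 3 genes are shown because they hold the closest matches to the p53 binding consensus among these genes. RefSeq promoter entries of the GRCr8 build matched 8 of the 9 genes, and Zmat3 had no entry. The 250 bases before the annotated start were searched for the 10-base p53 consensus motif, which reads the same on both strands, and for the 20-base tandem of that motif without a spacer. Cdkn1a, Aen and Ccng1 each held a perfect 10-base match, as did 6.64% of all 33469 promoters. The same 3 genes held the 20-base tandem with up to 2 mismatches, as did 0.72% of all promoters, a limit chosen after the sequences were seen. Capitals mark that 20-base stretch. It lies 201 to 182 bases before the start of Cdkn1a with 1 mismatch (chr20:7150682-7150931, plus strand), 30 to 11 bases before the start of Aen with 2 mismatches (chr1:142224283-142224532, plus strand), and 242 to 223 bases before the start of Ccng1 with 1 mismatch (chr10:25684877-25685126, minus strand).
Cdkn1a: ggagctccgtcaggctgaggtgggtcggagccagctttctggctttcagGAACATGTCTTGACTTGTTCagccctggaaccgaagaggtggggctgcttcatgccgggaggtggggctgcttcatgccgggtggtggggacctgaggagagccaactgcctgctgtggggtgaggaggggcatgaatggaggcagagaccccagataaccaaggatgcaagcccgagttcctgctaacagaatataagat
Aen: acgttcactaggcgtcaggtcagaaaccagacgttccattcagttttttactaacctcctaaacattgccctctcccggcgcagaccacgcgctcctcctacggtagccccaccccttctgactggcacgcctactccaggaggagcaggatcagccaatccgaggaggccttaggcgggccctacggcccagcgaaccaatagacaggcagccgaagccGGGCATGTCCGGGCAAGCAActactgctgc
Ccng1: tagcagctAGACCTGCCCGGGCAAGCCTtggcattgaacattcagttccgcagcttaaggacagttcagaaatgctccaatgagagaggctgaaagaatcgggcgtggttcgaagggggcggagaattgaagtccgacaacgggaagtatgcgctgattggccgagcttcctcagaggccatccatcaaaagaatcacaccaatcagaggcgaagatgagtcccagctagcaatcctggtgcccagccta
These matches describe letters in a short window. They do not show binding, and the windows of Mdm2, Phlda3, Rps27l, Btg2 and Plk2 do not cover introns or distant elements.

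Cdkn1a and Aen were set apart in the MAM pups. Cdkn1a was doubled relative to saline and Aen was higher by 27.5%, and in both genes every MAM pup lay above every one of the 18 other pups. Phlda3 and Rps27l were also higher on average in MAM, with some overlap with saline. Plk2 was lower, and Mdm2, Ccng1, Btg2 and Zmat3 differed from saline by less than 10% on average. Neither Poly I:C nor Low Protein had any of the 9 genes set apart from saline.

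**Figure D1:**
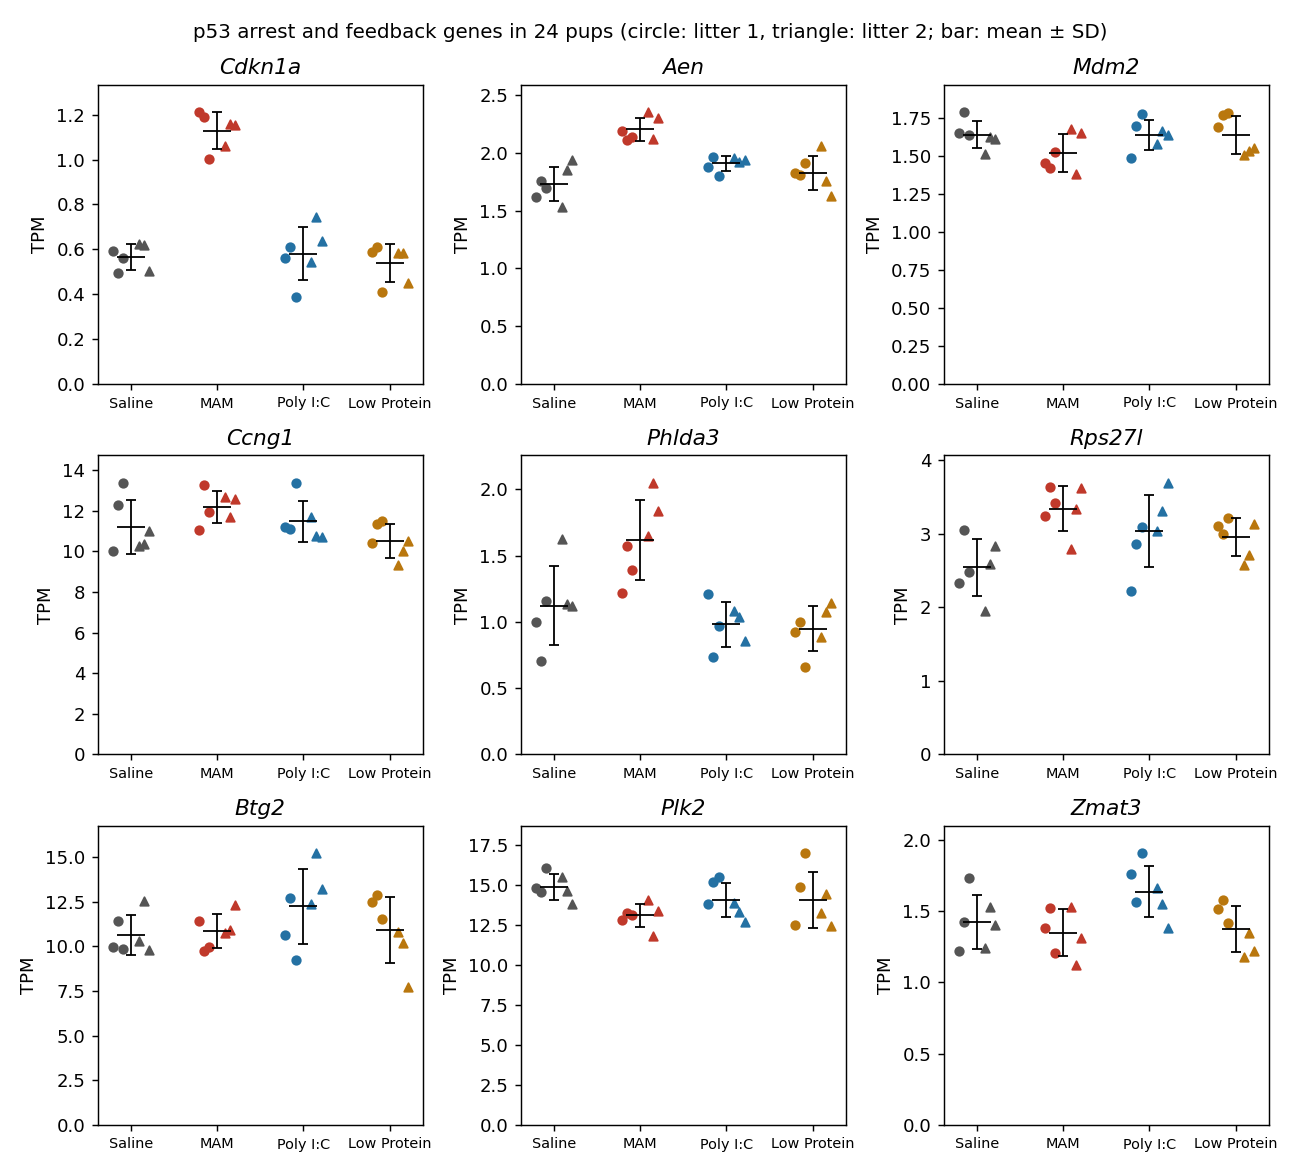
TPM of the 9 genes (y axis, from 0, 1 panel a gene) in each of the 24 pups by maternal treatment (x axis), with circles for litter 1, triangles for litter 2 and black bars for the mean ± SD of 6 pups. All 6 MAM pups lie above the other 18 pups for Cdkn1a (from 1.00 TPM, others up to 0.744 TPM) and Aen (from 2.11 TPM, others up to 2.06 TPM), and the groups overlap for the other 7 genes when MAM is set against saline.

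Cdkn1a encodes p21, the inhibitor of cyclin-dependent kinases that carries out much of the p53-driven arrest. In saline pups its level ran from 0.492 to 0.626 TPM with a median of 0.577 TPM. In MAM pups it ran from 1.00 to 1.21 TPM with a median of 1.16 TPM. The Poly I:C pups spanned 0.386 to 0.744 TPM (median 0.586 TPM) and the Low Protein pups 0.412 to 0.612 TPM (median 0.585 TPM). The 3 groups other than MAM overlapped throughout, and the lowest MAM pup stood above the highest of their 18 pups. The group means were 0.566 ± 0.0570 TPM in saline, 1.13 ± 0.0810 TPM in MAM, 0.580 ± 0.119 TPM in Poly I:C and 0.538 ± 0.0855 TPM in Low Protein (SD, n = 6 each). On the log2 scale the difference from saline was 1.00 ± 0.12 (SE) in MAM, a 2.00-fold level, and it was 0.02 ± 0.12 in Poly I:C and -0.08 ± 0.12 in Low Protein. Both MAM litters gave a log2 difference from saline of 1.00, and without saline pup 2.1 the difference was 1.03 (0.05 in Poly I:C and -0.05 in Low Protein). Among the 10796 genes Cdkn1a ranked 29 from the top by log2 difference between MAM and saline.

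Aen encodes a nuclease that p53 induces and that takes part in DNA breakdown during apoptosis. Saline pups had 1.53 to 1.94 TPM (median 1.73 TPM) and MAM pups 2.11 to 2.36 TPM (median 2.17 TPM). Poly I:C pups lay between them at 1.80 to 1.96 TPM (median 1.93 TPM), and Low Protein pups spanned 1.62 to 2.06 TPM (median 1.82 TPM). The MAM pups were all above the rest, while Poly I:C and Low Protein both overlapped saline. The gap between the lowest MAM pup (2.11 TPM) and the highest other pup (2.06 TPM) was smaller than the counting error given below. The log2 difference from saline was 0.35 ± 0.058 (SE) in MAM, or 1.27-fold, with 0.31 in litter 1 and 0.39 in litter 2, and 0.32 without saline pup 2.1. It was 0.14 ± 0.058 in Poly I:C and 0.08 ± 0.058 in Low Protein, or 0.11 and 0.04 without that pup. Set against the other treatments, the MAM level of Aen was higher by 0.21 on the log2 scale than in Poly I:C and by 0.27 than in Low Protein.

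**Figure D2:**
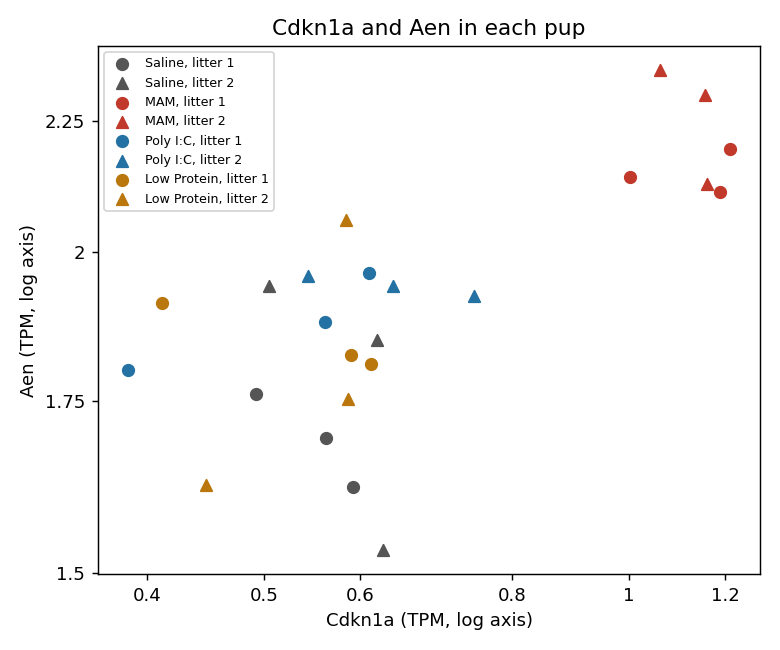
Cdkn1a (x axis, TPM, log axis) against Aen (y axis, TPM, log axis) in each of the 24 pups, coloured by maternal treatment, with circles for litter 1 and triangles for litter 2. The 6 MAM pups stand apart in the upper right, and the other 3 groups overlap.

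Over all 24 pups the log2 values of Cdkn1a and Aen had a Pearson r of 0.71. After each group's mean was taken away the r was 0.07 (24 pups), with the separation between groups removed. The genes whose pattern over the 24 pups was most like that of Cdkn1a were Gtse1 (r = 0.78), a cell-cycle protein that binds p53, Ube2c (r = 0.77), the ubiquitin-conjugating enzyme of the anaphase-promoting complex, Mlycd (0.76), the decarboxylase of malonyl-CoA, Tubb4b (0.75), a tubulin, and Eno1 (0.74), a glycolytic enolase. Those most like Aen were Dnase2 (r = 0.75), the lysosomal DNase, then Cdkn1a itself (0.71), the p53 targets Ddit4 (0.69) and Psrc1 (0.69), and the ligand gene Wnt7b (0.68). The r of these neighbours include the separation between groups and were not taken within groups. They describe libraries that share a scaling and are picked as the highest among all genes fitted.

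Phlda3 encodes a pleckstrin-homology protein that competes with Akt for membrane lipids. Its saline pups were the most spread, from 0.701 to 1.63 TPM with a median of 1.13 TPM, and the highest of them was pup 2.1. MAM pups ran from 1.22 to 2.05 TPM (median 1.61 TPM). Poly I:C pups ran from 0.733 to 1.21 TPM (median 1.00 TPM) and Low Protein pups from 0.660 to 1.14 TPM (median 0.961 TPM). MAM did not overlap Low Protein, and 3 of the 6 MAM pups were above all saline pups. The lowest MAM pup (1.216 TPM) was barely above the highest Poly I:C pup (1.213 TPM), a gap far smaller than the counting error given below. Without saline pup 2.1 the highest saline value was 1.16 TPM and all 6 MAM pups were above it. The log2 difference between MAM and saline was 0.55 ± 0.17 (SE) with all pups, or 1.46-fold, and 0.67 without pup 2.1. The 2 MAM litters differed, with 1.22 to 1.57 TPM in litter 1 and 1.65 to 2.05 TPM in litter 2. The log2 differences from saline were -0.17 ± 0.17 in Poly I:C and -0.22 ± 0.17 in Low Protein. They were -0.05 and -0.11 without pup 2.1.

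Rps27l encodes a ribosomal protein closely related to Rps27 that p53 induces and that binds Mdm2. Its saline pups ran from 1.95 to 3.05 TPM (median 2.54 TPM) and its MAM pups from 2.80 to 3.63 TPM (median 3.38 TPM). Poly I:C pups ran from 2.22 to 3.69 TPM (median 3.06 TPM) and Low Protein pups from 2.57 to 3.22 TPM (median 3.04 TPM). All 3 treated medians lay above the saline median, 5 of 6 MAM pups were above every saline pup, and the highest single pup belonged to Poly I:C. The log2 differences from saline were 0.40 ± 0.11 (SE) in MAM, 0.25 ± 0.11 in Poly I:C and 0.23 ± 0.11 in Low Protein. Saline pup 2.1 had the lowest value, and without it these differences were 0.33, 0.18 and 0.15. The Poly I:C litters averaged 2.72 TPM (litter 1) and 3.34 TPM (litter 2). The transcript resembles that of Rps27, and reads could be split between the pair in counting. For Rps27 the mean was 167 ± 19.5 TPM in saline and 177 ± 13.2 TPM in MAM (SD, n = 6 each), and its log2 differences from saline were 0.09 ± 0.087 (SE) in MAM, 0.00 ± 0.087 in Poly I:C and 0.17 ± 0.087 in Low Protein.

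The feedback genes Mdm2 and Ccng1 overlapped saline in every treatment. Mdm2, which marks p53 for degradation and is itself a p53 target, had 1.52 to 1.79 TPM in saline (median 1.64 TPM) and 1.38 to 1.68 TPM in MAM (median 1.49 TPM). Poly I:C pups had 1.49 to 1.78 TPM (median 1.65 TPM) and Low Protein pups 1.51 to 1.79 TPM (median 1.62 TPM). The MAM pups lay slightly lower and 3 of 6 were below every saline pup, with a log2 difference of -0.11 ± 0.061 (SE). The log2 differences of Poly I:C and Low Protein were both -0.00 ± 0.061. Leaving out saline pup 2.1 gave Mdm2 differences of -0.14 in MAM and -0.02 in both other treatments. Ccng1, cyclin G1, which brings a phosphatase to Mdm2, had 10.0 to 13.4 TPM in saline (median 10.7 TPM) and 11.1 to 13.3 TPM in MAM (median 12.3 TPM). It had 10.7 to 13.4 TPM in Poly I:C (median 11.2 TPM) and 9.30 to 11.5 TPM in Low Protein (median 10.4 TPM). The Ccng1 log2 differences were 0.13 ± 0.074 in MAM, 0.04 ± 0.074 in Poly I:C and -0.09 ± 0.074 in Low Protein, and they were 0.10, 0.01 and -0.11 without that pup.

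Btg2, an antiproliferative gene that also marks neurogenic progenitors at their last division, overlapped between all groups. Its saline pups had 9.77 to 12.6 TPM (median 10.1 TPM) and its MAM pups 9.74 to 12.3 TPM (median 10.8 TPM), a log2 difference of 0.03 ± 0.12 (SE). Poly I:C pups spread over 9.22 to 15.2 TPM (median 12.5 TPM) and Low Protein pups over 7.73 to 12.8 TPM (median 11.1 TPM). The log2 differences were 0.19 ± 0.12 and 0.02 ± 0.12. With saline pup 2.1 left out, the Btg2 differences were 0.02 in MAM, 0.18 in Poly I:C and 0.02 in Low Protein. Zmat3, a zinc finger protein that binds RNA, had 1.22 to 1.73 TPM in saline (median 1.41 TPM) and 1.12 to 1.53 TPM in MAM (median 1.35 TPM). It was highest in Poly I:C at 1.38 to 1.91 TPM (median 1.61 TPM), and Low Protein pups had 1.18 to 1.58 TPM (median 1.38 TPM). The Zmat3 log2 differences from saline were -0.08 ± 0.10 in MAM, 0.20 ± 0.10 in Poly I:C and -0.05 ± 0.10 in Low Protein, and every treated group overlapped saline. They were -0.12, 0.17 and -0.09 without that pup.

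Plk2, a polo-like kinase that p53 induces and that neuronal activity also raises, was the only one of the 9 with nearly all MAM pups below saline. Saline pups had 13.8 to 16.1 TPM (median 14.7 TPM) and MAM pups 11.9 to 14.1 TPM (median 13.2 TPM). In MAM 5 of 6 pups lay below the lowest saline pup. The log2 difference was -0.19 ± 0.070 (SE), and it was -0.18 in litter 1 and -0.19 in litter 2. Poly I:C pups ran from 12.7 to 15.5 TPM (median 13.8 TPM) and Low Protein pups from 12.5 to 17.0 TPM (median 13.8 TPM), both overlapping saline, with log2 differences of -0.09 ± 0.070 each. Leaving out saline pup 2.1 gave Plk2 differences of -0.17 in MAM, -0.07 in Poly I:C and -0.08 in Low Protein.

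**Figure D3:**
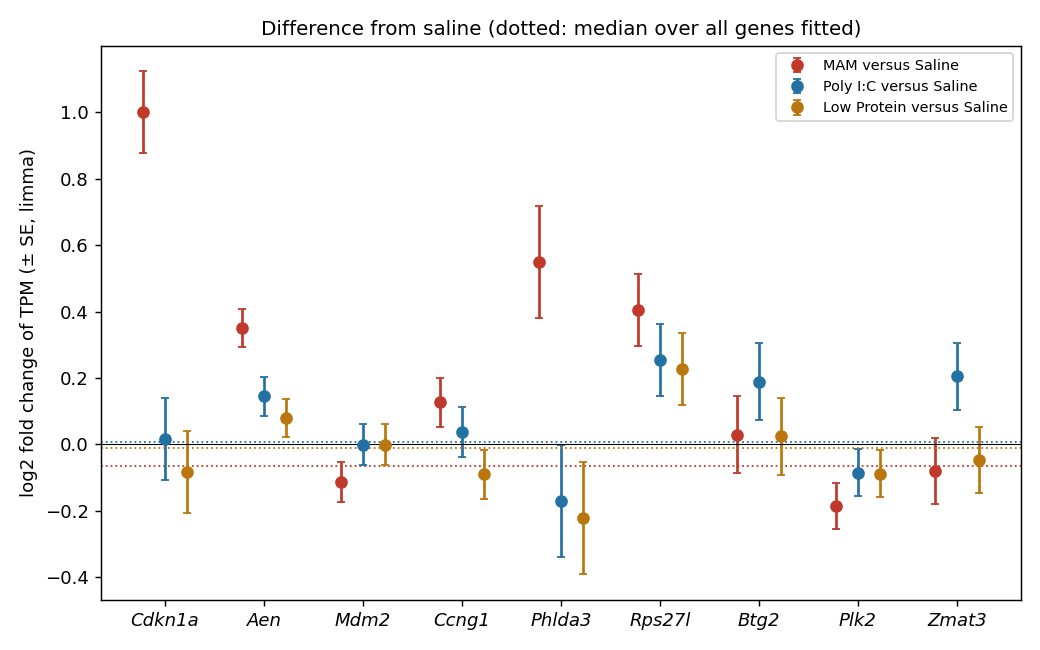
Log2 fold change of TPM against saline for the 9 genes (y axis, points with limma standard errors) in MAM, Poly I:C and Low Protein, with dotted lines at the median over all 10796 genes. Cdkn1a in MAM stands at 1.00, while the Poly I:C and Low Protein points of all 9 genes lie between -0.22 and 0.25.

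Counted together, 6 of the 9 genes were higher and 3 lower in MAM than in saline, with a median log2 difference of 0.13 where the median of all genes was -0.07 and 28.6% of all genes were higher. Of the Poly I:C differences 6 were higher and 3 lower (median 0.04, all genes 0.01, 52.6% of all genes higher), and in Low Protein 3 were higher and 6 lower (median -0.05, all genes -0.01, 45.9% of all genes higher). In MAM 2 of the 9 genes, Cdkn1a and Aen, lay above saline without overlap and 0 below, where 0.269% of all genes lay above and 0.639% below. Without saline pup 2.1, an alternative added after the data were seen, the count was 3 with Phlda3, beside 0.472% of all genes. For Poly I:C and Low Protein 0 of the 9 genes were free of overlap in either direction, where 0.148% and 0.296% of all genes lay above and below in Poly I:C, and 0.176% and 0.556% in Low Protein. At an unadjusted p under 0.05 in limma, with no minimum fold, 4 of the 9 were higher in MAM (Cdkn1a, Aen, Phlda3 and Rps27l) and 1 lower (Plk2), beside 2.27% and 8.23% of all genes. Plk2 lost this call with median of ratios scaling, with litter means, and without MAM litter 1 or saline litter 1, and Phlda3 lost it without MAM litter 2 or saline litter 1. For Poly I:C 2 were higher (Aen and Rps27l) and 0 lower, beside 4.25% and 5.55%, and in Low Protein 1 was higher (Rps27l) and 0 lower, beside 2.82% and 4.82%. The Poly I:C call of Aen held in 22 of 27 alternative settings and that of Rps27l in 18 of 27, and the Low Protein call of Rps27l held in 12 of 27. All of them were lost without saline pup 2.1, which left 0 of the 9 genes called in Poly I:C (beside 2.57% of all genes higher and 4.39% lower) and 0 in Low Protein (beside 2.01% and 3.24%). At an adjusted p under 0.05 over all genes limma called 2 of the 9 in MAM, Cdkn1a and Aen, and these were the only calls there, 0.0185% of all genes. It called 0 of the 9 in Poly I:C and 0 in Low Protein, as it did 0% of all genes in both. The adjusted call of Cdkn1a held in 23 of 26 alternative settings and that of Aen in 13 of 27. Without saline pup 2.1 the counts in MAM were 4 higher and 2 lower (Plk2 and Mdm2) at an unadjusted p, beside 2.49% and 13.2% of all genes, and 1 at an adjusted p. Without Low Protein pup 2.2 the Low Protein differences of the 9 genes lay between -0.26 (Phlda3) and 0.25 (Rps27l). As the genes were chosen with these contrasts in view, nothing is read from these counts.

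The litters of a group did not overlap for some of the 9 genes. The share of all genes stands beside each count, and nothing particular to the 9 genes is read from them. In Low Protein the 3 pups of litter 1 lay above the 3 pups of litter 2 for 3 genes. Mdm2 had 1.70 to 1.79 TPM against 1.51 to 1.55 TPM, Btg2 11.5 to 12.8 TPM against 7.73 to 10.8 TPM, and Zmat3 1.42 to 1.58 TPM against 1.18 to 1.35 TPM. Such separation of litters, in either direction, was seen for 18.8% of all genes in Low Protein. The litters did not overlap for 1 of the 9 genes in saline (Mdm2, beside 4.45% of all genes), for 1 in MAM (Phlda3, beside 6.42%) and for 0 in Poly I:C (beside 18.5%). For Cdkn1a and Aen the litters of every group overlapped. Within groups, over 24 pups with the group means taken away, the highest correlations among the 9 genes were those of Ccng1 with Zmat3 (r = 0.71) and of Cdkn1a with Btg2 (r = 0.63), and the lowest was that of Cdkn1a with Ccng1 (r = -0.57). These are picked as the extremes of all pairs, and differences between litters were not taken away.

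Other genes of the pathway were taken from 5 lists of regulators, arrest genes, apoptosis genes, repair genes and metabolic targets, 50 genes in all, of which 38 were fitted. These lists too were chosen with earlier results of these data known, so their counts and p-values are descriptions and not independent support. In MAM 8 of the 38 were higher and 2 lower at an unadjusted p under 0.05, beside 2.27% and 8.23% of all genes, and 0 passed at an adjusted p in limma. The median log2 difference of the 38 genes was -0.05, close to the -0.07 of all genes, with 15 higher and 23 lower. Among the Poly I:C differences 1 was higher (Pcna) and 1 lower (Bid), beside 4.25% and 5.55% of all genes. In Low Protein 2 were higher (Sesn2 and Bax) and 2 lower (Plk3 and Bid), beside 2.82% and 4.82%. None passed at an adjusted p in either treatment. The same shares of all genes apply to the counts of each list below. Without saline pup 2.1 the MAM counts were 6 higher and 5 lower, beside 2.49% and 13.2% of all genes. With the libraries rescaled by median of ratios they were 9 higher and 0 lower, where 567 and 345 of all 10796 genes were higher and lower.

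Of the other arrest genes, 4 of 9 were higher in MAM and 0 lower, beside 2.27% and 8.23% of all genes. Sesn2, a sestrin that restrains growth signalling under stress, went from 0.304 ± 0.0306 to 0.407 ± 0.0259 TPM (SD, n = 6 each; log2 difference 0.42 ± 0.15 SE, limma unadjusted p = 0.00840, adjusted p = 0.446). Ddit4, an inhibitor of mTORC1, went from 36.3 ± 2.42 to 42.1 ± 2.82 TPM (log2 difference 0.22 ± 0.065, limma unadjusted p = 0.00319, adjusted p = 0.431). Ier5 and Rprm, the G2 arrest gene reprimo, had log2 differences of 0.31 and 0.20, and both calls were lost without saline pup 2.1 (0.22 and 0.10). Gadd45a, the classic arrest and repair target, was not among them, with a log2 difference of -0.23 ± 0.15 (limma unadjusted p = 0.143, adjusted p = 0.540). Sesn2 was also higher in Low Protein, by 0.43 on the log2 scale, where Plk3, another polo-like kinase, was lower (-0.28, and -0.18 without saline pup 2.1, when it was no longer called).

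Of 6 apoptosis targets fitted, Bbc3, which encodes the BH3-only protein PUMA, was higher in MAM (1.89 ± 0.179 to 2.26 ± 0.151 TPM, log2 difference 0.27 ± 0.079, limma unadjusted p = 0.00293, adjusted p = 0.431). Bid, another BH3-only protein, was lower (0.561 ± 0.0421 to 0.490 ± 0.0306 TPM, log2 difference -0.19 ± 0.064), and it was also lower in Poly I:C (-0.28) and in Low Protein (-0.14, and -0.11 without saline pup 2.1, when it was no longer called). Bax, the pore-forming partner, had a log2 difference of 0.09 ± 0.057 that did not pass in MAM (limma unadjusted p = 0.132, adjusted p = 0.531). In Low Protein it was higher, with a log2 difference of 0.12 ± 0.057 (limma unadjusted p = 0.0396, adjusted p = 0.641). Without saline pup 2.1 the apoptosis targets Perp and Apaf1 were also called lower in MAM (-0.46 and -0.20, and -0.34 and -0.16 with all pups). With all pups none of the 5 repair targets passed in MAM in either direction. Without saline pup 2.1 Xpc was called lower (-0.18, and -0.13 with all pups), beside 13.2% of all genes. Pcna, the replication clamp, had a log2 difference of 0.00 ± 0.10 in MAM. Pcna was higher in Poly I:C, with a log2 difference of 0.24 ± 0.10 (limma unadjusted p = 0.0248, adjusted p = 0.425). Of 12 metabolic and other targets, 3 were higher in MAM, with log2 differences of 0.40 for Psrc1, 0.27 for Ckap2 (both microtubule proteins of mitosis) and 0.12 for Abhd4, a lipid hydrolase. Tigar, which lowers glycolytic flux, was lower (log2 difference -0.17). Of the 6 regulators 0 passed in limma in MAM.

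**Figure D4:**
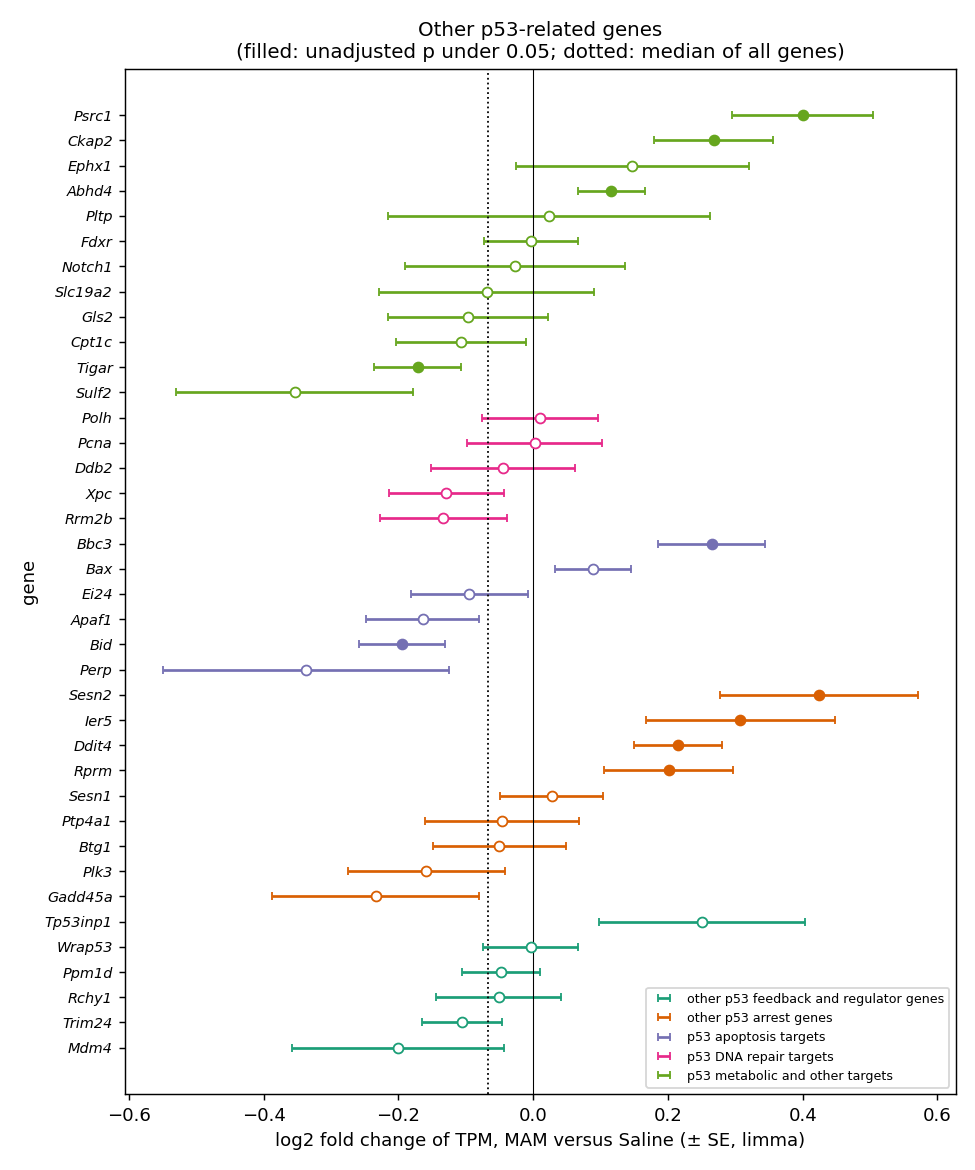
Log2 fold change of TPM between MAM and saline (x axis, ± limma SE) for the 38 other p53-related genes, coloured by list, with filled points for an unadjusted p under 0.05, a solid line at 0 and a dotted line at the median of all genes, -0.07. Filled points stand at 8 genes on the right, the largest being Sesn2 at 0.42, and at 2 genes on the left, Bid and Tigar.

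The cyclins and kinases that p21 restrains, with their partners, were examined beside Cdkn1a. Of 15 fitted, 3 were higher in MAM at an unadjusted p under 0.05 and 0 lower, and 0 passed at an adjusted p. They were the mitotic genes Ccnb2 (14.7 ± 0.607 to 18.2 ± 1.34 TPM, log2 difference 0.30 ± 0.086), Cdk1 (1.88 ± 0.0933 to 2.19 ± 0.155 TPM, 0.22 ± 0.094) and Ccnb1 (2.89 ± 0.239 to 3.32 ± 0.354 TPM, 0.20 ± 0.086). The limma unadjusted p-values were 0.00186, 0.0281 and 0.0323, with adjusted p-values of 0.431, 0.471 and 0.471. The G1 cyclins Ccnd1 and Ccnd2 had log2 differences of -0.12 ± 0.10 and 0.03 ± 0.19 and did not pass (limma unadjusted p = 0.260 and 0.883, adjusted p = 0.629 and 0.960). Of the same 15 genes 2, Cdk2 and Rbl1, were higher in Poly I:C, and in Low Protein 0 passed in either direction. Without saline pup 2.1 Rb1 was called lower in MAM (-0.27, and -0.18 with all pups). Of 9 immediate early genes, which share with Plk2 a response to neuronal activity, 0 passed in MAM. There were 4 lower in Poly I:C (Egr1, Egr2, Dusp1 and Nr4a1), and in Low Protein 2 (Egr1 and Dusp1). Of 6 neurogenic progenitor genes, Mfng was higher in MAM (log2 difference 0.22, limma unadjusted p = 0.0414, adjusted p = 0.472), and Neurog1 and Pax6 were higher in Poly I:C. Without saline pup 2.1 Pax6 was no longer called in Poly I:C, while Gadd45g and Sox2 were called higher there (0.33 and 0.23), beside 2.57% of all genes.

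Markers of other cell types were measured in the same pups. In MAM the summed level of 6 microglia markers was 10.8 to 13.7 TPM, against 9.35 to 11.0 TPM in saline. In limma 3 of the 6 genes (C1qa, C1qb and Tyrobp) passed an unadjusted p under 0.05, with log2 differences of 0.39, 0.33 and 0.29. The others of this list had log2 differences of -0.03, 0.04 and 0.12 and did not pass. Of 7 ganglionic eminence and striatum markers fitted, 2 were lower in MAM (Dlx1 at -0.26 and Lhx6 at -0.34). Neither was called without saline pup 2.1 (-0.16 and -0.29), and nor was C1qa (0.37). The summed level of the 8 genes of that list in the table was 41.5 to 56.9 TPM in MAM and 44.7 to 90.5 TPM in saline. Of 4 blood markers fitted, the erythroid gene Hbe1 alone passed in MAM, higher by 0.75 on the log2 scale, and the others had differences of 0.03 to 0.21. Of the pyramidal, thalamus, choroid plexus, meninges and endothelium markers 0 passed in MAM in limma. In Low Protein 4 of the 7 ganglionic eminence and striatum markers and 1 of 6 pyramidal markers were lower, of which Lhx6 alone stayed called without saline pup 2.1, and in Poly I:C 1 of 3 thalamus markers was higher. No marker was at the table's offset in every pup of a group. Their part in the differences of the 9 genes was not tested, and in tissue RNA fewer cells of a type and less RNA per cell cannot be told apart.

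The estimated reads behind a value ran from 72 in a single pup for Phlda3 to 6435 for Plk2. At the median pup the counting error was 7.69% for Phlda3, 5.7% for Cdkn1a and 3.35% for Aen, and 1.68% for Ccng1 and Plk2. The coefficient of variation between saline pups was 26.7% for Phlda3, 10.1% for Cdkn1a and 8.66% for Aen, all above that error. Over the 36 combinations of gene and group the spread between pups was larger than the group's counting error in 35, the exception being Aen in Poly I:C (3.27% between pups, 3.83% counting error).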

How the data were processed

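Libraries of polyadenylated RNA were made with a stranded kit and sequenced in pairs. Per the study's methods and the submitters' processing notes, reads were trimmed, aligned to rn6 with STAR 2.4.1d and quantified against RefSeq transcripts in Partek. The authors then normalised the counts to TPM with an offset of 0.0001, and these TPM values are what was deposited. Each of the 24 columns summed to 70350.1, and 20.9% of values were at the offset. For the 86.7% of genes with a RefSeq span in GRCr8, 49.0 to 54.5% of low values times the span, introns included, fell within 0.05 of a whole multiple of a pup's smallest step (10% by chance). The values therefore behave as scaled by genomic span, and levels of different genes or lists were not compared. The steps give an estimated 24.3 M to 63.2 M reads a pup, with group medians (M reads) of 33.1 (saline), 41.4 (MAM), 30.0 (Poly I:C) and 43.1 (Low Protein). The rule that picks a pup's step was revised after the estimates were seen, since it had first returned a fraction of the step in saline pup 2.3. Counting errors are square roots of estimated reads and cover counting only.

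As TPM are not counts, no count model was used. Log2 values of the 10796 genes passing the filter were fitted with limma 3.58.1 in R 4.3.3, with all 24 pups in a single fit by group, and p-values were adjusted over all genes (Benjamini-Hochberg). Fold changes and SE are on the log2(TPM) scale, with no pseudocount beyond the offset. The fit was tested on simulated data in which pups were drawn independently. As that simulation held no litters, it does not show how the p-values behave when pups share a dam. P-values measure the spread between pups and not between dams. The 9 genes and all lists were chosen with earlier results of these data known. Named genes are the 9, Rps27, the list genes called in MAM with Bax, Gadd45a, Pcna, Ccnd1 and Ccnd2, and the 5 genes most like Cdkn1a and Aen. A further gene of this rule is not reported here. Genes called only in Poly I:C or Low Protein were named after their values were seen. Pup numbers are shared between groups in the labels but do not pair samples. The same-numbered pups' deviations from their group means correlated with a median r of 0.02 over 36 pairs (range -0.32 to 0.35), and the fit with the number as a block is an alternative. The study's own test was Partek's and added a minimum fold for Poly I:C and Low Protein, which was not applied here. The other alternatives were filters, pseudocounts, scalings, litter models and leaving out each pup or litter. Figures were drawn with matplotlib 3.10.9.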

Additional observations from a re-analysis of the deposited data

Results flagged for a closer look

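Among the 36 combinations of gene and treatment group, 1 pup stood far from the other 5 of its group. Ccng1 in Poly I:C pup 1.3 was 13.4 TPM, and the next pup of the group had 11.7 TPM. The gap was 0.633 of the group's range, just past the critical value of Dixon's test for 6 samples. Chance alone puts about 1 in 20 groups past that value. Saline also had a pup at 13.4 TPM for Ccng1.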

How the results depend on the processing

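The differences of the 9 genes were recomputed under 43 settings, giving 723 values, of which 721 moved by less than the spread between replicates and 0 turned a called direction. With a pseudocount of 1 the MAM log2 differences were 0.44 for Cdkn1a and 0.23 for Aen. In MAM 8 of 9 genes, all but Btg2, kept their sign throughout, and 5 of 9 did in Poly I:C and in Low Protein. The 1 TPM filter kept genes with a mean above 1 TPM in every group, which leaves out Cdkn1a and Phlda3. It follows the study's threshold but lacks Partek's reliability cutoff, so the genes that the study kept may differ. Under that filter the median over the 9 genes fell from 0.13 to 0.029 in MAM and rose from 0.04 to 0.14 in Poly I:C. In Low Protein it turned from -0.05 to 0.089 without Low Protein litter 2, and in MAM it was 0.21 without saline litter 1. Leaving out single pups gave 0.10 to 0.18 in MAM, 0.029 to 0.13 in Poly I:C (the highest without Poly I:C pup 1.3) and -0.09 to -6.24e-05 in Low Protein.

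The number of genes called at an unadjusted p was 1134 in MAM, 1058 in Poly I:C and 824 in Low Protein. Under the 1 TPM filter, with fewer genes fitted, it was 572, 506 and 419, and with litter means, with fewer samples, 573, 682 and 548. Without saline litter 1 MAM had 374, without MAM litter 1 or 2 it had 644 or 555. Poly I:C had 2072 without its litter 1, 488 without its litter 2 and 582 without saline litter 2, and Low Protein had 484 without saline litter 2. The cause was not tested. Leaving out single pups gave 601 (without saline pup 1.3) to 1696 (without saline pup 2.1) in MAM, with 754 without MAM pup 1.3 and 707 without MAM pup 2.2, 721 to 1404 in Poly I:C and 567 to 915 in Low Protein. The split of calls depended on scaling. In MAM 245 genes were higher and 889 lower as deposited, 567 and 345 with median of ratios scaling and 479 and 449 with upper quartile scaling. In Low Protein it was 304 and 520 as deposited and 449 and 459 with median of ratios. These scalings moved the median of all genes by up to 0.06 on the log2 scale. At an adjusted p MAM had 2 calls in 14 of its 27 alternatives, 3 in 1 (without saline pup 2.2), 1 in 9 and 0 in 3. The 3 with 0 calls, litter means and leaving out MAM litter 2 or saline litter 1, were those that lost Cdkn1a. Aen lost the adjusted call in these, in the fit of the 12 pups compared, in the block fit, without MAM litter 1 and without MAM pup 1.1, 1.3, 2.1 or 2.3 or saline pup 1.1, 1.2, 1.3 or 2.1. At an unadjusted p both were called in every alternative, as was Rps27l. As the genes were chosen with these contrasts in view, this describes only how the calls depend on the processing. Poly I:C had 276 adjusted calls without its litter 1, none among the 9 genes, and Low Protein 12 without its litter 1.

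Of the other p53 genes, 10 were called in MAM, and single pups left out gave 7 to 11. For Poly I:C 2 were called, 1 under the 1 TPM filter or with litter means and 8 without Poly I:C litter 1. Single pups left out gave 6 without Poly I:C pup 1.3 and 1 without Poly I:C pup 2.2 or 2.3 or saline pup 1.1. In Low Protein 4 were called, 1 with litter means, 2 under the 1 TPM filter, with upper quartile scaling or without Low Protein litter 1 or either saline litter, and 6 without Low Protein litter 2. Single pups left out gave 2 (without Low Protein pup 1.1, 1.2, 1.3 or 2.1 or saline pup 2.1) to 5. With the pup number as a replicate block, in a paired fit the labels do not warrant, 1452, 1261 and 1066 genes were called in MAM, Poly I:C and Low Protein, and 10, 3 and 3 of the other p53 genes.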
